A study of Mus musculus with 16 samples.

Results

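Gap junction genes of glia and neurons were followed through 3 types of mouse brain tumor and normal brain. The set was fixed by name and holds 9 genes of 19936 measured with a single symbol: the connexins Gja1, Gjb6, Gjb2, Gjb1, Gjc3, Gjd2 and Gjc1 and the pannexins Panx1 and Panx2, which form channels but are a separate protein family. Each of the 9 is read by 1 probe set of the array (9 of 35556 probe sets), all of which were tested. Expression was measured in total RNA on 16 Affymetrix arrays, 4 in each of 4 groups. The tumors labelled PDGF+p53-/- arose in mice with floxed p53 after infection with a retrovirus that makes both Cre recombinase and PDGF-B, a mitogen of glial precursor cells. For PDGF+p53-/-RBPjk-/- tumors the same virus was used in mice that also carried floxed RBPjk, the gene of the transcription factor at the end of the Notch pathway. The p53-/-RBPjk-/- tumors were made without the virus, by deletion of both floxed genes in Hes5+ cells with an Hes5::CreERT2 transgene, and their Pdgfb genotype is labelled wild type. Control brain is wild type for all 3 genes. Cre also switched on a GFP reporter by which the tumors were found and dissected once mice showed symptoms, so a sample can hold host brain. Strain, age, sex and brain region are not given in the labels, and the labels do not say whether the 4 arrays of a group are 4 animals, so p-values here cover no more than array-to-array spread, part of which may be technical.

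Connexins assemble in groups around a pore, and pores of neighbouring cells dock to form a gap junction through which ions and small metabolites pass. In the brain, astrocytes are coupled mainly by connexin 43 (Gja1) and connexin 30 (Gjb6), oligodendrocytes carry connexin 32 (Gjb1) and connexin 29 (Gjc3), and connexin 36 (Gjd2) forms electrical synapses between neurons. Pannexins do not build gap junctions in most tissues but open to the outside of the cell and release ATP, which acts on purinergic receptors.

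The starts of 4 of these genes are shown because they carry the main contrast of the data: Gja1, Gjb6 and Gjb2 were lower in all 3 tumor types than in control brain, and Gjc3 was higher. Each line gives the 250 bases before the RefSeq start in build GRCm38.p6, read 5′ to 3′ along the gene. Capitals mark matches, on either strand, to GGGCGG (a GC box), TGACTCA (AP-1, which binds Fos and Jun), TGGGAA (the core of RBPJ sites) or ACAAAG (a core of SOX sites).
Gja1, chr10:56377050-56377299, plus strand: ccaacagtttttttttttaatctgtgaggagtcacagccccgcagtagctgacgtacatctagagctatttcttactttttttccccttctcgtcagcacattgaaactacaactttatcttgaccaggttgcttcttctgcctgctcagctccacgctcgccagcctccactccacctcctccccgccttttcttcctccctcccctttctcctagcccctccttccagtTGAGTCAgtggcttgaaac
Gjb6, chr14:57133612-57133861, minus strand: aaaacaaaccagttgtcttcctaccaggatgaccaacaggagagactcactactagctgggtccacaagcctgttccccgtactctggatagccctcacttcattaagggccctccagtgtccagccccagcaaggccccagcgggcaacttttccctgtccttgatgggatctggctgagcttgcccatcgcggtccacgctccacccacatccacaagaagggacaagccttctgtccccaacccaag
Gjb2, chr14:57104703-57104952, minus strand: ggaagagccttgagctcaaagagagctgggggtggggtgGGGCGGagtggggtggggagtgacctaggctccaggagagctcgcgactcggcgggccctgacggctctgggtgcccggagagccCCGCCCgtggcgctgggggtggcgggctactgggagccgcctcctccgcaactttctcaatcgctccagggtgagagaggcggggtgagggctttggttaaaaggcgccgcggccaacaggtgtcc
Gjc3, chr5:137963099-137963348, minus strand: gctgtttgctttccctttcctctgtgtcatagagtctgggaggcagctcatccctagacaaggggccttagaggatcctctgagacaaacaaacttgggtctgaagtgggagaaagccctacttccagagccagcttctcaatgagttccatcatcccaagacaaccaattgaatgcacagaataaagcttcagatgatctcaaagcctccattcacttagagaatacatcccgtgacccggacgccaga
Gja1 has 1 AP-1 match 19 to 13 bases before its start, and 4.46% of all 32851 windows of this length in the RefSeq table hold one. Gjb2 has 2 GC boxes (32.7% of windows hold at least 1), and Gjb6, its neighbour on chromosome 14, has none of the 4 motifs in this window, nor has Gjc3. The table holds windows for 7 of the 9 genes, 10 windows in all. Among them the RBPJ core occurs in that of Panx1 alone (21.6% of all windows hold it) and the SOX core in 2 windows of Gjb1 (16.5%). The GC box also occurs before Gjb1 and Gjd2. A match is a string of letters and not a bound site.

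Tumors and control brain stood apart in their marker genes. Means over lists of cell type markers ran from 6.68 to 8.43 for 14 neuron genes in PDGF+p53-/- tumors, from 6.63 to 8.10 in PDGF+p53-/-RBPjk-/- tumors and from 5.88 to 7.22 in p53-/-RBPjk-/- tumors, against 10.29 to 10.54 in control brain (log2 expression). Means over 9 genes of dividing cells lay between 8.37 and 9.49 in the 12 tumor arrays and between 5.11 and 5.50 in control brain. PDGF+p53-/- replicate 3 stood nearest to control brain, with a neuron mean of 8.43 and an astrocyte mean of 8.90, against at most 7.12 and 8.34 in the other 3 arrays of its type. Arrays within a group correlated with r of 0.968 to 0.984 over probe sets, and no array repeated another. The arrays are normalised to a common distribution, so each value is relative to the other genes of its sample, and in such tissue samples fewer cells of a type and less RNA per cell cannot be told apart.

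Most of the 9 genes differed from control brain in each tumor type, and more were lower than higher. In PDGF+p53-/- tumors 5 were called lower and 1 higher at an adjusted p under 0.05 (limma, Benjamini-Hochberg over all 19936 genes), where 17.6% of all genes were called lower and 13.6% higher, 31.1% in all. PDGF+p53-/-RBPjk-/- tumors had 5 lower and 2 higher, with 17.9% and 15.7% of all genes, 33.6% in all. The p53-/-RBPjk-/- tumors had 5 lower and 1 higher, with 20.4% and 16.4% of all genes, 36.8% in all. The median difference over the 9 genes was -0.47, -0.51 and -0.55 on the log2 scale in these 3 comparisons, against -0.04, -0.03 and -0.02 over all genes. The 3 comparisons share the control arrays. The arrays of tumor and control did not overlap for 6 of the 9 genes in each comparison, where 30.0%, 34.5% and 34.4% of all genes did not overlap.

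**Figure D1:**
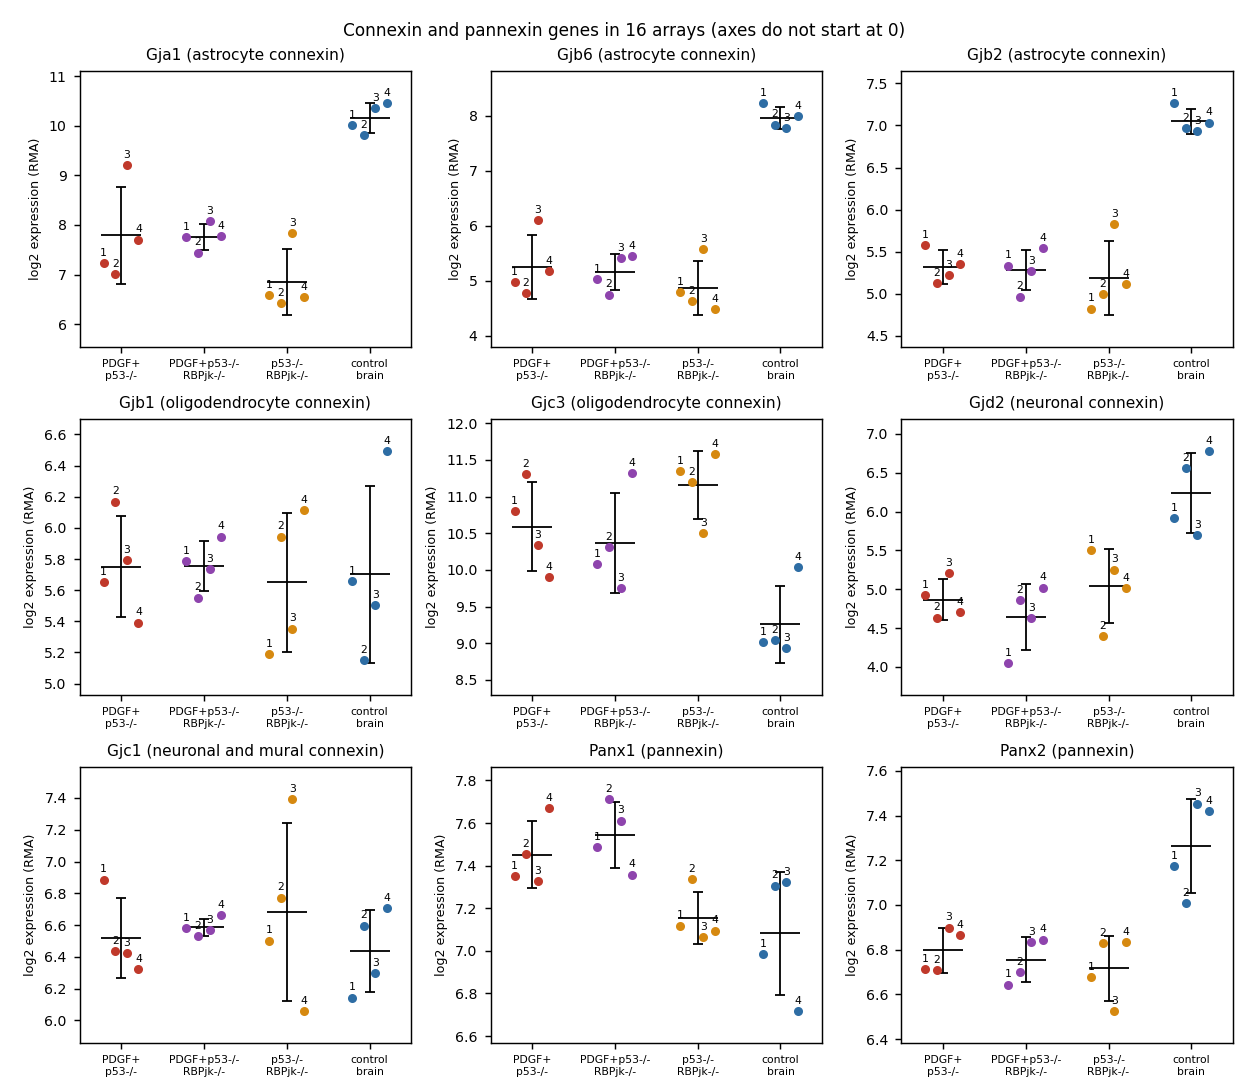
Log2 expression of the 9 genes (vertical axes, which do not start at 0) in the 3 tumor types and control brain, 1 point per array with its replicate number, with the mean (long bar) and SD (error bar) of 4 arrays. Gja1, Gjb6, Gjb2, Gjd2 and Panx2 are lower in every tumor array than in every control array, and p53-/-RBPjk-/- arrays lie above all control arrays for Gjc3.

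The astrocyte connexins were the genes with the largest falls among the 9. Gja1 read 7.23, 7.02, 9.20 and 7.70 in PDGF+p53-/- tumors, 7.75, 7.44, 8.08 and 7.78 in PDGF+p53-/-RBPjk-/- tumors and 6.58, 6.42, 7.84 and 6.55 in p53-/-RBPjk-/- tumors, against 10.01, 9.81, 10.36 and 10.45 in control brain (log2 expression, replicates 1 to 4). All 12 tumor arrays were below all control arrays, and the highest tumor value was that of PDGF+p53-/- replicate 3. Gja1, the main connexin of astrocytes, averaged 7.79 ± 0.99 in PDGF+p53-/- tumors, 7.76 ± 0.26 in PDGF+p53-/-RBPjk-/- tumors, 6.85 ± 0.66 in p53-/-RBPjk-/- tumors and 10.16 ± 0.30 in control brain (SD, n = 4 each). The differences from control were -2.37 ± 0.38, -2.40 ± 0.38 and -3.31 ± 0.38 (log2, SE), or 5.17-fold, 5.26-fold and 9.92-fold lower (limma adjusted p = 9.94e-05, 7.67e-05 and 1.74e-06). Without PDGF+p53-/- replicate 3 the first of these was -2.84, and without p53-/-RBPjk-/- replicate 3 the last was -3.64.

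Gjb6 read 4.97, 4.78, 6.10 and 5.17 in PDGF+p53-/- tumors, 5.03, 4.75, 5.42 and 5.44 in PDGF+p53-/-RBPjk-/- tumors and 4.79, 4.62, 5.58 and 4.48 in p53-/-RBPjk-/- tumors, against 8.23, 7.84, 7.78 and 8.00 in control brain (log2 expression, replicates 1 to 4). Every tumor array was again below every control array, and the means were 5.25 ± 0.58 in PDGF+p53-/- tumors, 5.16 ± 0.33 in PDGF+p53-/-RBPjk-/- tumors, 4.87 ± 0.49 in p53-/-RBPjk-/- tumors and 7.96 ± 0.20 in control brain (SD, n = 4 each). Gjb6, the connexin of mature astrocytes in grey matter, fell 6.53-fold in PDGF+p53-/-, 6.98-fold in PDGF+p53-/-RBPjk-/- and 8.55-fold in p53-/-RBPjk-/- tumors (log2 differences of -2.71, -2.80 and -3.10, SE 0.27 each, limma adjusted p = 6.31e-07, 3.61e-07 and 7.07e-08). Without PDGF+p53-/- replicate 3, the highest of the 12 tumor arrays for Gjb6, its difference in that type was -2.99.

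Gjb2 read 5.58, 5.12, 5.22 and 5.35 in PDGF+p53-/- tumors, 5.33, 4.97, 5.27 and 5.54 in PDGF+p53-/-RBPjk-/- tumors and 4.82, 4.99, 5.83 and 5.11 in p53-/-RBPjk-/- tumors, against 7.27, 6.97, 6.93 and 7.03 in control brain (log2 expression, replicates 1 to 4). Gjb2, connexin 26, is carried by some astrocytes and by cells of the leptomeninges. Its tumor and control arrays did not overlap, the 3 tumor types did, and the means were 5.32 ± 0.20 in PDGF+p53-/- tumors, 5.28 ± 0.24 in PDGF+p53-/-RBPjk-/- tumors, 5.19 ± 0.44 in p53-/-RBPjk-/- tumors and 7.05 ± 0.15 in control brain (SD, n = 4 each). It fell 3.33-fold, 3.42-fold and 3.64-fold in PDGF+p53-/-, PDGF+p53-/-RBPjk-/- and p53-/-RBPjk-/- tumors (log2 differences of -1.73, -1.77 and -1.86, SE 0.18 each, limma adjusted p = 1.48e-06, 9.51e-07 and 3.44e-07). For all 3 astrocyte connexins the exact two-sided permutation p of each comparison with control was 0.0286, the smallest that 4 against 4 arrays allow.

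Astrocyte markers other than connexins moved in the same comparisons. Of 13 measured, 9 were called lower in PDGF+p53-/-, 9 in PDGF+p53-/-RBPjk-/- and 10 in p53-/-RBPjk-/- tumors, and 0 were higher, with median differences of -1.04, -0.92 and -1.41. Their mean per array ran from 7.90 to 8.90, from 7.95 to 8.33 and from 7.63 to 7.89 in these types, against 9.17 to 9.39 in control brain. Of 11 markers of leptomeninges and fibroblasts 6, 5 and 6 were called lower. The part of these cell types in the falls of Gja1, Gjb6 and Gjb2 was not tested. In each tumor type the array with the highest Gja1 value was also the one with the highest neuron mean: PDGF+p53-/- replicate 3 at 8.43, PDGF+p53-/-RBPjk-/- replicate 3 at 8.10 and p53-/-RBPjk-/- replicate 3 at 7.22. Of these, only PDGF+p53-/- replicate 3 also had the highest astrocyte mean of its type. That mean was 8.30 in PDGF+p53-/-RBPjk-/- replicate 3 (8.33 in replicate 4) and 7.81 in p53-/-RBPjk-/- replicate 3 (7.89 in replicate 2). Over the 12 tumor arrays, Gja1 had a Pearson r of 0.85 with the astrocyte mean and 0.90 with the neuron mean. With the mature oligodendrocyte mean it was 0.85. After group means were subtracted (16 arrays), r was 0.76, 0.83 and 0.65.

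**Figure D2:**
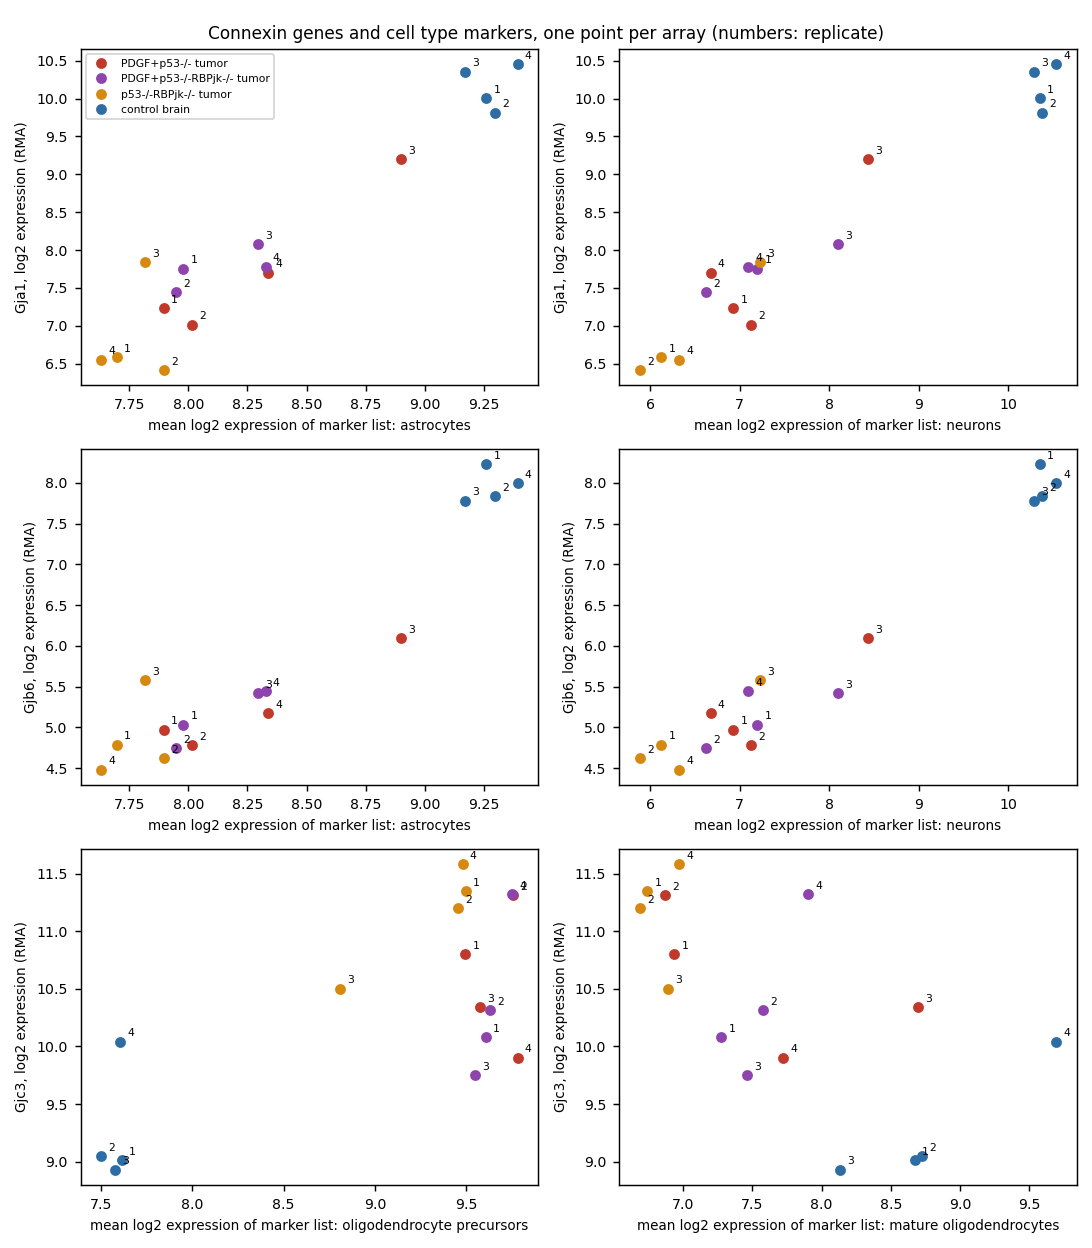
Log2 expression of Gja1, Gjb6 and Gjc3 (vertical axes) against the mean log2 expression of a list of cell type markers (horizontal axes), 1 point per array and numbered by replicate. PDGF+p53-/- replicate 3, with an astrocyte mean of 8.90 and a neuron mean of 8.43, lies between the other tumor arrays and control brain for Gja1 and Gjb6, and control replicate 4 has the highest Gjc3 value and the highest mature oligodendrocyte mean of control brain.

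Of the 2 oligodendrocyte connexins, Gjc3 rose in all 3 tumor types and Gjb1 passed in none. Gjc3 read 10.80, 11.31, 10.34 and 9.90 in PDGF+p53-/- tumors, 10.08, 10.31, 9.75 and 11.32 in PDGF+p53-/-RBPjk-/- tumors and 11.35, 11.20, 10.50 and 11.58 in p53-/-RBPjk-/- tumors, against 9.01, 9.05, 8.93 and 10.04 in control brain (log2 expression, replicates 1 to 4). The p53-/-RBPjk-/- arrays were all above the control arrays, while replicate 4 of PDGF+p53-/- tumors and replicate 3 of PDGF+p53-/-RBPjk-/- tumors were below control replicate 4. The means were 10.59 ± 0.60 in PDGF+p53-/- tumors, 10.37 ± 0.68 in PDGF+p53-/-RBPjk-/- tumors, 11.16 ± 0.47 in p53-/-RBPjk-/- tumors and 9.26 ± 0.52 in control brain (SD, n = 4 each). Gjc3, connexin 29, which lines the myelin sheath and does not pair readily into gap junctions, rose 2.52-fold in PDGF+p53-/-, 2.16-fold in PDGF+p53-/-RBPjk-/- and 3.73-fold in p53-/-RBPjk-/- tumors. Its log2 differences were 1.33, 1.11 and 1.90 (SE 0.35 each, limma adjusted p = 0.00656, 0.0192 and 0.000265), with exact permutation p = 0.0571, 0.0571 and 0.0286. The call in PDGF+p53-/-RBPjk-/- tumors was lost without any 1 of control replicates 1, 2 and 3 (highest value 1.04, adjusted p = 0.0512) or without PDGF+p53-/-RBPjk-/- replicate 4 (0.79, adjusted p = 0.0787), and its adjusted p ranged from 0.00594 to 0.0787 over 25 alternatives.

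Gjb1 read 5.65, 6.17, 5.79 and 5.39 in PDGF+p53-/- tumors, 5.79, 5.55, 5.74 and 5.94 in PDGF+p53-/-RBPjk-/- tumors and 5.19, 5.94, 5.35 and 6.11 in p53-/-RBPjk-/- tumors, against 5.66, 5.15, 5.50 and 6.49 in control brain (log2 expression, replicates 1 to 4). The groups overlapped throughout, and control replicate 4 held the highest value of the 16. Gjb1, connexin 32, which links the layers of the myelin sheath, differed from control by 0.05 (95% interval -0.48 to 0.58) in PDGF+p53-/-, 0.05 (-0.48 to 0.58) in PDGF+p53-/-RBPjk-/- and -0.05 (-0.58 to 0.48) in p53-/-RBPjk-/- tumors, and did not pass the limma test (adjusted p = 0.913, 0.906 and 0.902). Gjb1, like Gjb6, Gjb2 and Gjd2, was among the 4 of the 9 genes that the filter on dim genes left out.

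Markers of mature oligodendrocytes and of their precursors moved in opposite directions. Of 11 precursor genes 10, 10 and 9 were called higher in PDGF+p53-/-, PDGF+p53-/-RBPjk-/- and p53-/-RBPjk-/- tumors, with medians of 2.02, 2.20 and 1.64, and 0 were lower. Of 11 mature oligodendrocyte genes 7, 7 and 8 were called lower, with medians of -1.33, -1.32 and -2.15, and 0 were higher. In control replicate 4, where Gjc3 read 10.04, the mean over the mature oligodendrocyte genes was 9.69, against 8.13 to 8.73 in the other 3 control arrays. Without that array the Gjc3 differences were 1.59, 1.37 and 2.16 (limma adjusted p = 0.00228, 0.00594 and 0.000115). In p53-/-RBPjk-/- replicate 3, the lowest of its type for Gjc3, the precursor mean was 8.81, against 9.45 to 9.50 in the other 3. The lowest arrays of the other types differed: the precursor mean was the lowest of its type in PDGF+p53-/-RBPjk-/- replicate 3 (9.55) and the highest in PDGF+p53-/- replicate 4 (9.78). Over the 12 tumor arrays, Gjc3 had a Pearson r of -0.004 with the precursor mean and -0.45 with the mature oligodendrocyte mean. After group means were subtracted (16 arrays), r was 0.48 and 0.11. The part of these cells in the Gjc3 values was not tested.

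Of the connexins found in neurons, one fell and the other did not pass. Gjd2 read 4.92, 4.64, 5.21 and 4.70 in PDGF+p53-/- tumors, 4.05, 4.86, 4.63 and 5.02 in PDGF+p53-/-RBPjk-/- tumors and 5.50, 4.40, 5.25 and 5.01 in p53-/-RBPjk-/- tumors, against 5.92, 6.56, 5.69 and 6.78 in control brain (log2 expression, replicates 1 to 4). Control arrays were above all tumor arrays, by a narrow margin for control replicate 3 against p53-/-RBPjk-/- replicate 1. The means were 4.87 ± 0.26 in PDGF+p53-/- tumors, 4.64 ± 0.42 in PDGF+p53-/-RBPjk-/- tumors, 5.04 ± 0.47 in p53-/-RBPjk-/- tumors and 6.24 ± 0.52 in control brain (SD, n = 4 each). Gjd2, connexin 36 of electrical synapses, fell 2.59-fold in PDGF+p53-/-, 3.03-fold in PDGF+p53-/-RBPjk-/- and 2.29-fold in p53-/-RBPjk-/- tumors (log2 differences of -1.37, -1.60 and -1.20, SE 0.27 each, limma adjusted p = 0.000628, 0.000131 and 0.00152, exact permutation p = 0.0286 each). All 14 neuron markers were called lower in each tumor type, with medians of -3.24, -3.20 and -3.94. Over the 12 tumor arrays, Gjd2 had a Pearson r of 0.02 with the neuron mean, and r was 0.29 after group means were subtracted (16 arrays). What part of the Gjd2 difference follows the neuron content of the samples was not tested.

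Gjc1 read 6.89, 6.44, 6.42 and 6.32 in PDGF+p53-/- tumors, 6.58, 6.53, 6.57 and 6.66 in PDGF+p53-/-RBPjk-/- tumors and 6.50, 6.77, 7.39 and 6.06 in p53-/-RBPjk-/- tumors, against 6.14, 6.60, 6.30 and 6.71 in control brain (log2 expression, replicates 1 to 4). The 4 groups overlapped, and p53-/-RBPjk-/- tumors held both the lowest and the highest of the 16 values. Gjc1, connexin 45, is made by neurons and by cells of the vessel wall. Its differences from control were 0.08 (95% interval -0.37 to 0.53), 0.15 (-0.30 to 0.60) and 0.25 (-0.20 to 0.70) in PDGF+p53-/-, PDGF+p53-/-RBPjk-/- and p53-/-RBPjk-/- tumors, with limma adjusted p = 0.824, 0.655 and 0.412. All 3 intervals include 0.

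Of the pannexins, Panx2 fell in all 3 tumor types and Panx1 passed the test in 1. Panx2 read 6.71, 6.71, 6.90 and 6.86 in PDGF+p53-/- tumors, 6.64, 6.70, 6.83 and 6.84 in PDGF+p53-/-RBPjk-/- tumors and 6.68, 6.83, 6.53 and 6.83 in p53-/-RBPjk-/- tumors, against 7.17, 7.01, 7.45 and 7.42 in control brain (log2 expression, replicates 1 to 4). All tumor arrays were below all control arrays, with means of 6.80 ± 0.10 in PDGF+p53-/- tumors, 6.76 ± 0.10 in PDGF+p53-/-RBPjk-/- tumors, 6.72 ± 0.15 in p53-/-RBPjk-/- tumors and 7.26 ± 0.21 in control brain (SD, n = 4 each). Panx2, a pannexin of neurons and glia, fell 1.38-fold, 1.42-fold and 1.46-fold in PDGF+p53-/-, PDGF+p53-/-RBPjk-/- and p53-/-RBPjk-/- tumors (log2 differences of -0.47, -0.51 and -0.55, SE 0.12 each, limma adjusted p = 0.00588, 0.00287 and 0.00136, exact permutation p = 0.0286 each).

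Panx1 read 7.35, 7.46, 7.33 and 7.67 in PDGF+p53-/- tumors, 7.49, 7.71, 7.61 and 7.36 in PDGF+p53-/-RBPjk-/- tumors and 7.12, 7.34, 7.07 and 7.10 in p53-/-RBPjk-/- tumors, against 6.98, 7.31, 7.32 and 6.72 in control brain (log2 expression, replicates 1 to 4). Both PDGF types lay above control brain without overlap, and p53-/-RBPjk-/- arrays overlapped those of control brain. For PDGF+p53-/- tumors the margin was very narrow, with replicate 3 at 7.326 against 7.321 in control replicate 3. The means were 7.45 ± 0.16 in PDGF+p53-/- tumors, 7.54 ± 0.15 in PDGF+p53-/-RBPjk-/- tumors, 7.15 ± 0.12 in p53-/-RBPjk-/- tumors and 7.08 ± 0.29 in control brain (SD, n = 4 each). Panx1, the widely expressed ATP release channel, was called higher in PDGF+p53-/-RBPjk-/- tumors (0.46 ± 0.14, 1.38-fold, limma adjusted p = 0.0163) and missed the threshold in PDGF+p53-/- tumors (0.37 ± 0.14, adjusted p = 0.0551, exact permutation p = 0.0286). Its difference in p53-/-RBPjk-/- tumors was 0.07 ± 0.14 (adjusted p = 0.744). The call in PDGF+p53-/-RBPjk-/- tumors was lost without control replicate 4 (0.34, adjusted p = 0.0676), without PDGF+p53-/-RBPjk-/- replicate 2 (0.40, adjusted p = 0.0516) and with housekeeping centring (0.36, adjusted p = 0.0591), within a range of 0.00538 to 0.0676 over 25 alternatives. The value in PDGF+p53-/- tumors passed without control replicate 2 (0.44) or 3 (0.45), without dim genes and with array weights, and its adjusted p ranged from 0.0315 to 0.199.

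**Figure D3:**
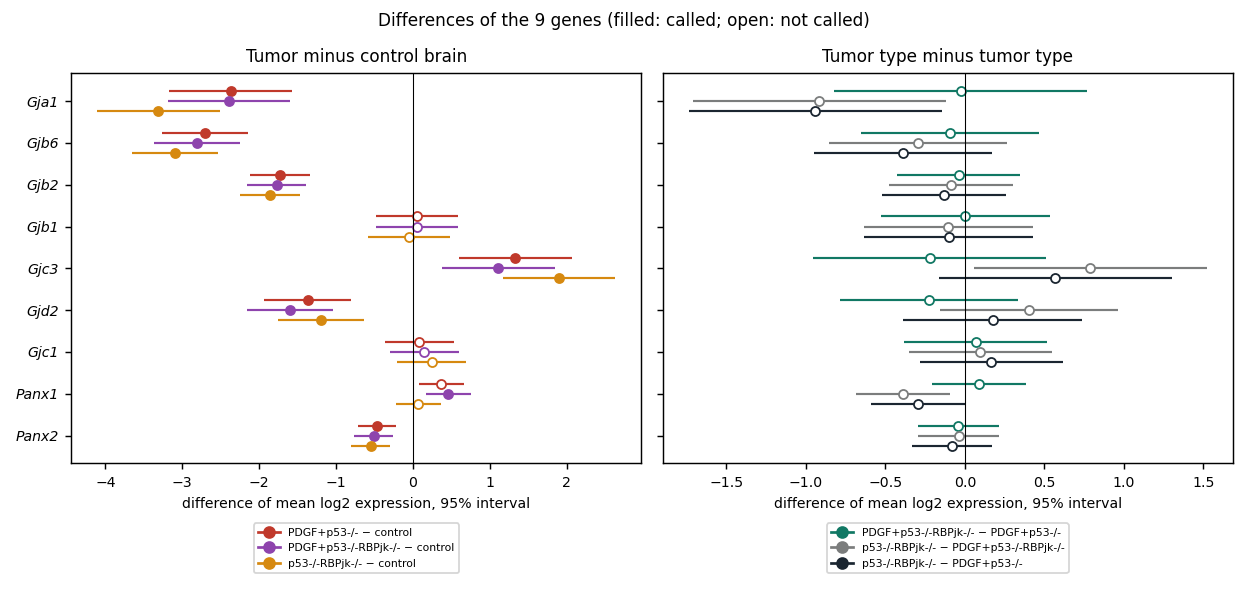
Differences of mean log2 expression of the 9 genes with 95% intervals (horizontal axes), each tumor type minus control brain on the left and tumor type minus tumor type on the right. Filled points passed an adjusted p under 0.05 and open points did not. Gja1, Gjb6, Gjb2, Gjd2 and Panx2 lie left of 0 and Gjc3 right of 0 in all 3 comparisons with control, and all points on the right are open.

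The design also sets the tumor types against each other. Loss of RBPjk within PDGF-driven tumors was tested by PDGF+p53-/-RBPjk-/- against PDGF+p53-/- tumors, where limma called 0 of the 9 genes and 0.0201% of all genes. At an unadjusted p under 0.05 the count was also 0 of 9, where 5.18% of all genes were under it. The differences ran from -0.23 for Gjd2 to 0.09 for Panx1, and the 95% intervals over the 9 genes reached from -0.95 to 0.77. For Gja1 the difference was -0.03 (-0.82 to 0.77), or 0.45 without PDGF+p53-/- replicate 3, also not called, and it was -0.10 for Gjb6 (-0.66 to 0.46) and -0.04 for Gjb2 (-0.43 to 0.35), and the arrays of both types overlapped for each of the 9 (3.18% of all genes did not overlap).

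Tumors made without the virus were set against both PDGF types. In p53-/-RBPjk-/- against PDGF+p53-/-RBPjk-/- tumors limma called 0 of the 9 genes, against 3.27% of all genes, and 3 of 9 had an unadjusted p under 0.05, as did 16.5% of all genes. These were Gja1 at -0.92 (95% interval -1.71 to -0.12, adjusted p = 0.225), Gjc3 at 0.79 (0.06 to 1.52, adjusted p = 0.261) and Panx1 at -0.39 (-0.68 to -0.09, adjusted p = 0.155). Panx1 was the 1 gene of 9 whose arrays did not overlap there (9.69% of all genes), with an exact permutation p of 0.0286. Against PDGF+p53-/- tumors limma again called 0 of the 9, with 5.54% of all genes called, and Gja1 (-0.94, adjusted p = 0.168) and Panx1 (-0.30, adjusted p = 0.259) had an unadjusted p under 0.05, as did 19.1% of all genes. The arrays did not overlap for 0 of the 9 genes there and for 9.75% of all genes. Without PDGF+p53-/- replicate 3 that Gja1 difference was -0.47 and without p53-/-RBPjk-/- replicate 3 it was -1.27, with adjusted p between 0.0354 and 0.451 over 25 alternatives. The means of Gja1, Gjb6, Gjb2 and Panx2 had the same order, from p53-/-RBPjk-/- tumors at the low end through PDGF+p53-/-RBPjk-/- and PDGF+p53-/- tumors to control brain, and of its steps the one to control brain passed the test. Gjd2 had its lowest mean in PDGF+p53-/-RBPjk-/- and Gjc3 its highest in p53-/-RBPjk-/- tumors, and neighbouring tumor types were not told apart for either gene. All 4 p53-/-RBPjk-/- arrays showed the female pattern of sex-linked genes, as did 1 of 4 in each PDGF type and 2 of 4 control arrays, and with sex as a term 0 of the 9 genes were called in any comparison of tumor types. That term left 0.306% and 0.918% of all genes called for p53-/-RBPjk-/- tumors against PDGF+p53-/-RBPjk-/- and PDGF+p53-/- tumors, so the count of 0 says little about the 9 genes.

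Few other genes of the gap junction family passed the test. Of 14 further connexins and Panx3 listed, 10 were measured. Limma called 0, 0 and 1 of them in PDGF+p53-/-, PDGF+p53-/-RBPjk-/- and p53-/-RBPjk-/- tumors against control, where 31.1%, 33.6% and 36.8% of all genes were called. At an unadjusted p under 0.05 there were 1, 0 and 2, against 39.4%, 41.0% and 43.7% of all genes. The mean over the 10 was low, at 4.91 to 5.17 per control array against a median of 6.29 over all genes. Gjd3, Gja3 and Gja6 were above that median in control brain, with means of 6.82, 6.58 and 6.39. The same shares of all genes called apply to the lists of related genes that follow. The 1 called gene was Gja10, a connexin of retinal horizontal cells, at 0.37 ± 0.13 with overlapping arrays (adjusted p = 0.0304). The medians were -0.01, 0.00 and 0.08.

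Genes that work beside astrocyte gap junctions in the clearance of potassium, water and glutamate were called lower in part in the same comparisons. Aqp4, Slc1a2 and Slc1a3 among them also belong to the astrocyte markers counted above, so the lists are not separate. Of 8 such channels and transporters 5 were called lower in PDGF+p53-/-, 6 in PDGF+p53-/-RBPjk-/- and 7 in p53-/-RBPjk-/- tumors, and 0 higher, with medians of -0.67, -0.88 and -1.54. Slc1a2, the main glutamate transporter of astrocytes, was at -1.94 ± 0.32, -2.27 ± 0.32 and -3.29 ± 0.32 (log2, SE), and Mlc1, a membrane protein of astrocyte junctions, at -1.91, -2.01 and -1.94 (SE 0.33 each). Aqp4, the water channel of astrocyte endfeet, was at -0.88, -0.87 and -2.34 (SE 0.27 each). Glul, the glutamine synthetase of astrocytes, was at -1.22, -1.59 and -1.80 (SE 0.25 each), and Slc1a3, a second glutamate transporter, was at -0.46, which did not pass, -0.88 and -1.27 (SE 0.22 each). Kcnj10, the inward rectifier potassium channel of astrocytes, chosen after its values were seen, did not pass in any of the 3, at -0.28, -0.26 and -0.31 (SE 0.21 each, adjusted p = 0.358, 0.373 and 0.265). Hepacam, an adhesion protein of astrocyte junctions, also chosen after its values were seen, was at 0.48 and -0.34, which did not pass, in PDGF+p53-/- and PDGF+p53-/-RBPjk-/- tumors and at -0.87 in p53-/-RBPjk-/- tumors (SE 0.21 each, adjusted p = 0.0977, 0.239 and 0.00283).

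Receptors and enzymes that act on the ATP released by pannexins were called higher more often than lower. Of 8 measured, 5 were called higher and 1 lower in PDGF+p53-/-, 4 and 1 in PDGF+p53-/-RBPjk-/-, and 4 and 2 in p53-/-RBPjk-/- tumors, with medians of 0.80, 0.67 and 0.51. P2rx7, an ATP-gated channel that can work together with Panx1, rose 7.06-fold, 7.81-fold and 6.40-fold (log2 differences of 2.82, 2.97 and 2.68, SE 0.18 each, limma adjusted p = 3.91e-09, 1.52e-09 and 3.85e-09). Nt5e, which makes adenosine from AMP, was at 2.01 ± 0.34 and 1.90 ± 0.34 in PDGF+p53-/- and PDGF+p53-/-RBPjk-/- tumors (adjusted p = 0.000176 and 0.000262) and at 0.46 ± 0.34 in p53-/-RBPjk-/- tumors (adjusted p = 0.333). P2rx4, another ATP-gated channel, rose by 0.77, 0.61 and 0.61 in the 3 types. P2ry1, an ADP receptor, was at 0.89, 0.73 and 0.91 (SE 0.29 each), of which the value in PDGF+p53-/-RBPjk-/- tumors did not pass. Entpd1, which breaks down ATP outside the cell, rose by 0.84 and 0.79 in PDGF+p53-/- and PDGF+p53-/-RBPjk-/- tumors and was at 0.27, which did not pass, in p53-/-RBPjk-/- tumors (SE 0.22 each). P2ry12, an ADP receptor of microglia, fell by 1.06 in p53-/-RBPjk-/- tumors and was at -0.56 and -0.57, which did not pass, in PDGF+p53-/- and PDGF+p53-/-RBPjk-/- tumors. Of 12 microglia and myeloid markers, among them P2ry12 again, 2, 1 and 2 were called higher and 0, 0 and 6 lower. Their part in the purinergic values was not tested.

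Scaffold proteins and kinases of connexin 43 showed no common direction. Of 8 scaffolds and binding partners 1, 1 and 1 were called higher and 1, 2 and 2 lower in PDGF+p53-/-, PDGF+p53-/-RBPjk-/- and p53-/-RBPjk-/- tumors. Ccn3, a secreted protein that binds the tail of connexin 43, was 5.17-fold, 6.09-fold and 5.35-fold lower (log2 differences of -2.37, -2.61 and -2.42, SE 0.40 each). Cav1, the coat protein of caveolae, rose by 1.40 ± 0.31 in PDGF+p53-/-RBPjk-/- and 1.06 ± 0.31 in p53-/-RBPjk-/- tumors and was at 0.76 ± 0.31 in PDGF+p53-/- tumors (adjusted p = 0.0757). The other called scaffolds each passed in 1 type: Ctnnb1, beta-catenin, at 0.42 ± 0.12 in PDGF+p53-/- tumors, Dbn1, an actin-binding protein, at -0.40 ± 0.15 in PDGF+p53-/-RBPjk-/- tumors and Cdh2, the neural cadherin, at -0.87 ± 0.19 in p53-/-RBPjk-/- tumors. Of 7 kinases 3, 3 and 3 were called higher and 2, 1 and 2 lower. Cdk1, the kinase of mitosis, which is also in the list of dividing cells, rose by 3.11, 3.44 and 3.61 (SE 0.22 each). Mapk7 rose by 1.13, 1.18 and 0.59 (SE 0.12 each), and Prkce, a protein kinase C, was at -1.98, -2.15 and -2.28 (SE 0.18 each). Csnk1d, a casein kinase, rose by 0.41, 0.35 and 0.38, and Prkca, another protein kinase C, was at -0.40, -0.21, which did not pass, and -0.83 (SE 0.12 each for both).

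**Figure D4:**
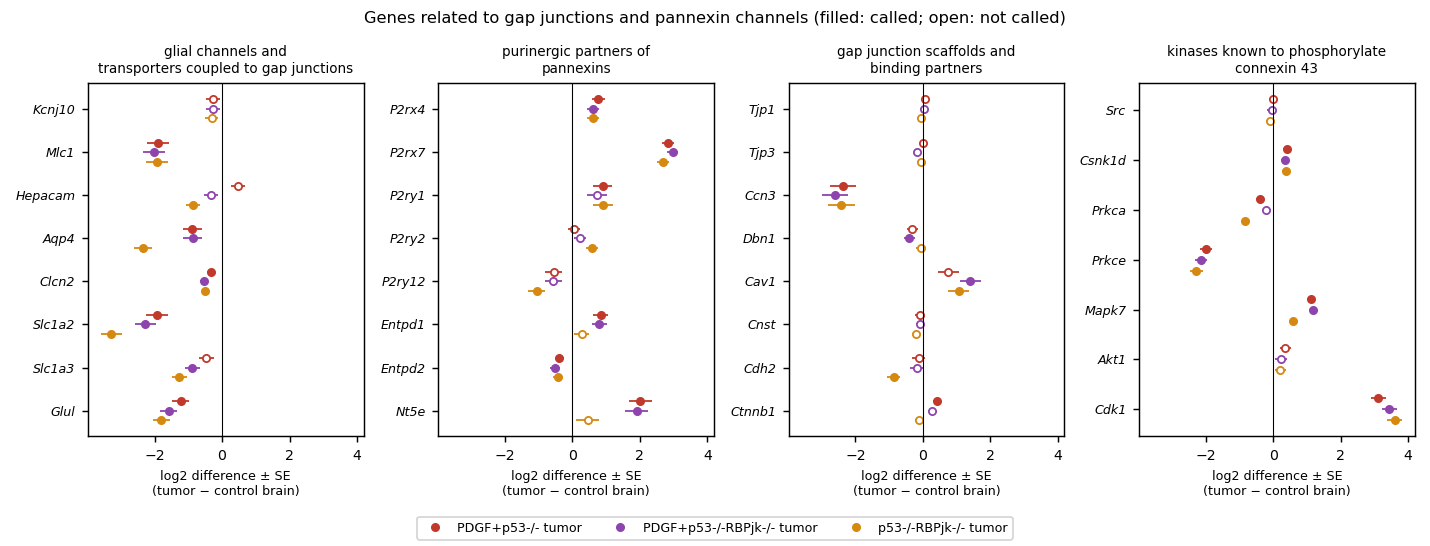
Log2 differences from control brain (horizontal axes, with SE) of genes related to gap junctions and pannexin channels in the 3 tumor types, filled where the adjusted p was under 0.05. Slc1a2 and Mlc1 lie left of 0 in all 3 types, P2rx7 lies between 2.68 and 2.97, and Nt5e is filled in both PDGF types.

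The genes whose levels over the 16 arrays were most like each of the 9 are given as a description, since all correlations share the same arrays and the gap between tumors and control brain. For Gja1 these were Rit2, St6galnac5 and Epha7 (Pearson r = 0.986, 0.982 and 0.981, and 0.921, 0.902 and 0.930 after group means were subtracted, n = 16 arrays). For Gjb6 they were Atp2b2, a calcium pump of neurons, the synaptic protein gene Cplx1 and the neurofilament gene Nefl (r = 0.989, 0.988 and 0.987, and 0.909, 0.887 and 0.913 within groups). Gjb2 was most like Gjb6, St8sia5 and Iqsec3 (r = 0.959, 0.954 and 0.953), and the value with Gjb6 was 0.537 within groups. Gjc3 was most like Rmi1, Slc38a1 and Skap2 (r = 0.931, 0.921 and 0.911). Gjd2 was most like Lhfpl5, Phactr2 and Plch2 (r = 0.931, 0.930 and 0.926), Panx2 like Nuak1, Slc30a3 and Slc4a3 (r = 0.968, 0.959 and 0.943) and Panx1 like Atp10a, Tirap and Tnfrsf1a (r = 0.865, 0.858 and 0.854). Gjc1 was most like Zfp982, Zfp119a and Ythdc1 (r = 0.863, 0.849 and 0.846), and Gjb1 like Krtap31-2, Canx and Slc16a9 (r = 0.766, 0.744 and 0.743).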

How the data were processed

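The data are log2 expression values of 35556 probe sets on 16 arrays (total RNA, Trizol extraction, biotin label, per the labels). The authors deposited them after RMA with oligo, a step that the submitters' processing notes name. The versions, annotation build and filters were not stated there. Values lie between 1.20 and 14.1 with 0 missing, and array medians between 5.97 and 6.06. The array annotation gives 1 symbol for 21789 probe sets and several for 1621 (not used), and 12146 are unnamed here. Symbols were matched to GRCm38.p6 (21701 matched, 2 updated). Of several probe sets of a gene (1001 genes), the brightest was taken, leaving 19936 genes. Promoter windows are from RefSeq (GRCm38.p6).

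All 16 arrays entered one limma 3.58.1 fit (R 4.3.3, lmFit and eBayes, 12 residual and 5.33 prior degrees of freedom) with 6 two-sided comparisons, called at a Benjamini-Hochberg adjusted p under 0.05. The median SE of a difference was 0.15, and the number of arrays limits precision. The fit was tested on simulated data. Figures were drawn with matplotlib 3.10.9. The replicate number was not used as a block, because the labels tie the numbers to no animal or day and not every same-numbered pair of arrays deviated together. The 9 genes, the gene lists and the tests were chosen with earlier results of these data known. Named genes are all 9, in each comparison with control up to 4 of each list of related genes with the largest called differences, called family members, and the 3 genes most like each of the 9. Alternatives were 1 array left out, other probe set rules, housekeeping centring, a filter on dim genes, trend and robust settings, array weights, fits of 2 groups, the replicate block and a sex term.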

Additional observations from a re-analysis of the deposited data

Results flagged for a closer look

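Arrays of 1 group were compared for each of the 9 genes, and 2 of 36 groups held an array far from the other 3, by a criterion that chance meets in about 5% of groups. Gja1 read 7.84 in p53-/-RBPjk-/- replicate 3, with the nearest array of that type at 6.58. The neuron mean of that array was 7.22, against 5.88 to 6.33 in the other 3, and its precursor mean was 8.81, against 9.45 to 9.50. Its astrocyte mean was 7.81, within the 7.63 to 7.89 of the other 3. Without it the Gja1 difference from control brain was -3.64 in place of -3.31. Gjc3 read 10.04 in control replicate 4, with the nearest control array at 9.05, and the mature oligodendrocyte mean of that array was 9.69, against at most 8.73 in the other 3. Without it the Gjc3 differences of PDGF+p53-/-, PDGF+p53-/-RBPjk-/- and p53-/-RBPjk-/- tumors from control brain were 1.59, 1.37 and 2.16. What these marker levels contribute was not tested.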

How the results depend on the processing

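Each difference was recomputed with 1 of the 16 arrays left out in turn and under 9 further settings. Each of the 9 genes has 1 probe set, so the other probe set rules left its difference unchanged. So did leaving out an array of a group that was not compared. Such alternatives could move only the adjusted p, so they say nothing about the stability of the difference itself. Of 1326 recomputed values of the 9 genes, 12 changed their call. The 12 belong to 4 differences: Panx1 in both PDGF types, Gjc3 in PDGF+p53-/-RBPjk-/- tumors and Gja1 between p53-/-RBPjk-/- and PDGF+p53-/- tumors. A change of sign with a call before or after it occurred 0 times. Uncalled differences near 0 did change sign, such as Gja1 between the PDGF types (-0.28 to 0.45 over 25 alternatives). With an array left out, the count of called genes was 6 to 7, 6 to 7 and 6 in PDGF+p53-/-, PDGF+p53-/-RBPjk-/- and p53-/-RBPjk-/- tumors against control, and 0 in each comparison of tumor types. Without genes below the median over all genes, which leaves out Gjb6, Gjb2, Gjb1 and Gjd2 and so tests 5 of the 9, the counts were 4 in PDGF+p53-/-RBPjk-/- and 3 in p53-/-RBPjk-/- tumors. With housekeeping centring 1 gene was higher and 5 were lower in PDGF+p53-/-RBPjk-/- tumors (2 and 5 before). That centring moved the median of all genes from -0.04 to -0.15 in PDGF+p53-/- and from -0.03 to -0.13 in PDGF+p53-/-RBPjk-/- tumors against control, and from -0.01 to 0.11 and from 0.01 to 0.13 in p53-/-RBPjk-/- tumors against PDGF+p53-/-RBPjk-/- and PDGF+p53-/- tumors. The share of higher genes among all calls was then 31.8% in place of 43.5%, 36.2% in place of 46.6%, 49.7% in place of 19.5% and 67.2% in place of 34.8%. With the replicate number as a block 1 gene was called between p53-/-RBPjk-/- and PDGF+p53-/- tumors, Gja1 at -0.94 (adjusted p = 0.0354, range 0.0354 to 0.451 over 25 alternatives). Same-numbered arrays had correlations of their deviations from -0.12 to 0.18 (over 0.1 in 7 of 24 pairs, against 8 of 72 pairs of other numbers), and 7 of 16 arrays correlated best with their own number, so the numbers were not taken to pair all arrays. The 3 pairs of replicate 3 between tumor types were at 0.16 to 0.18. The all-gene counts of 651 genes (p53-/-RBPjk-/- against PDGF+p53-/-RBPjk-/- tumors) and 1105 genes (against PDGF+p53-/- tumors) were 61 and 183 with a sex term, 395 and 289 with only both groups in the fit, and, for the first, 351 over every probe set and 1198 with array weights. The 4 genes called between the PDGF types were 2 over every probe set, with housekeeping centring and with the block. The cause of these changes was not tested, except that the dim filter tests fewer genes. The deposited values carry no background flag, so signal over background could not be judged.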

Other observations

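Some genes related to gap junctions did differ between the tumor types, where the 9 genes themselves had no called difference. Aqp4, the water channel of astrocyte endfeet, was lower in p53-/-RBPjk-/- tumors than in PDGF+p53-/-RBPjk-/- tumors by a log2 difference of -1.47 ± 0.27 (SE, limma adjusted p = 0.00862) and than in PDGF+p53-/- tumors by -1.46 ± 0.27 (adjusted p = 0.00557). Nt5e, which makes adenosine, was at -1.44 ± 0.34 (adjusted p = 0.0269, overlapping arrays) and -1.55 ± 0.34 (adjusted p = 0.0132) in the same 2 comparisons. Hepacam, an adhesion protein that holds Mlc1 and connexin 43 at astrocyte junctions, was lower in p53-/-RBPjk-/- than in PDGF+p53-/- tumors by -1.34 ± 0.21 (adjusted p = 0.00169). Cdh2, the neural cadherin, was at -0.75 ± 0.19 (adjusted p = 0.0293) and Ctnnb1, its partner beta-catenin, at -0.52 ± 0.12 (adjusted p = 0.0208) there. These genes were named after their values were seen, and further called genes of the lists are not named. Against PDGF+p53-/-RBPjk-/- tumors 1 of 8 glial channels and transporters, 1 of 8 purinergic genes and 2 of 7 kinases were called, all lower. Against PDGF+p53-/- tumors these counts were 4 of 8, 1 of 8 and 1 of 7, with 2 of 8 scaffolds, all lower. Of all genes, 3.27% were called against PDGF+p53-/-RBPjk-/- and 5.54% against PDGF+p53-/- tumors. With sex as a term these shares were 0.306% and 0.918%. All 4 p53-/-RBPjk-/- arrays showed the female pattern, and the cause of the lower shares was not tested. Whether the genes named here kept their calls with that term was not examined. Between PDGF+p53-/-RBPjk-/- and PDGF+p53-/- tumors 0 genes of the 5 lists of related genes were called by limma.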
